A study of Mus musculus with 6 samples.

Results

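*Cyp1a2* and 7 further genes of the aryl hydrocarbon receptor (AHR) axis were examined in mouse morulae upon *Yy1* knockdown (KD). The 8 genes, of 55364 listed, were taken by symbol: *Cyp1a2*, *Cyp1a1*, *Cyp1b1*, *Ahr*, *Arnt*, *Ahrr*, *Tiparp* and *Nqo1*. *Cyp1a2* was picked on its own values in these libraries, because its level went from near 0 in the control KD libraries to a clear level in the *Yy1* KD libraries, so that its values are a description and no test is given for it. The other 7 genes were chosen by their roles, though with earlier results of these data known. The question was whether the receptor, its partners and its other targets followed *Cyp1a2*. BDF1 x BDF1 zygotes were injected with a control siRNA (control knockdown) or with an siRNA against *Yy1* (Yy1 knockdown), cultured in KSOM and collected as morulae 64 h after insemination. RNA-seq was performed on 3 libraries per group, each from a pool of 10 morulae, so that neither single embryos nor single cells were resolved. Levels are TPM, a transcript abundance in which read pairs are corrected for the exon length of each gene and every library is scaled to the same total.

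The AHR is a ligand-activated transcription factor of the bHLH-PAS family. Without ligand it is held in the cytoplasm by a chaperone complex with HSP90 and PTGES3 (p23). Upon ligand binding it enters the nucleus, pairs with ARNT and binds elements with the core GCGTG near its target genes, which include *Cyp1a1*, *Cyp1a2*, *Cyp1b1*, *Tiparp*, *Nqo1* and the gene of its own repressor, *Ahrr*. CYP1A1, CYP1A2 and CYP1B1 are cytochrome P450 enzymes that oxidize planar aromatic compounds. *Cyp1a2* is known as a gene of the liver, where it is also expressed without an added ligand.

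*Cyp1a2* (ENSMUSG00000032310.4) lies at chr9:57676937-57683703 (GRCm38) on the minus strand, has 7 exons, and no exon of another annotated gene overlaps them. *Cyp1a1* (ENSMUSG00000032315.6) lies beside it on the plus strand at chr9:57687928-57703824. The promoters of both genes, of *Tiparp* and of *Ahrr* are shown because they hold or lack, close to the start, the core of the element that the receptor binds. Bases from 250 to 21 before the RefSeq start (RefSeq, GRCm38.p6) are given 5′ to 3′ on the strand of the gene, and capitals mark the core element GCGTG on either strand (CACGC where it is read on the opposite strand) and the TATA box TATAAA.
*Cyp1a2* promoter, chr9:57683676-57683905, minus strand: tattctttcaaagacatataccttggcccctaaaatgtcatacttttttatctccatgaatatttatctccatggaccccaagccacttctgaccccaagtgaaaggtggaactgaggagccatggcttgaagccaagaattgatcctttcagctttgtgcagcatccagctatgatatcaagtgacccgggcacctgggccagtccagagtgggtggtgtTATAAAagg
*Cyp1a1* promoter, chr9:57697363-57697592, plus strand: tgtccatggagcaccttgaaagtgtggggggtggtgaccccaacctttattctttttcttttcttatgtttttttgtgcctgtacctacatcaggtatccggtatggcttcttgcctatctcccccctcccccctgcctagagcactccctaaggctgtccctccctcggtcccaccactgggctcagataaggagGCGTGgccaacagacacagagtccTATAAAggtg
*Tiparp* promoter, chr3:65528197-65528426, plus strand: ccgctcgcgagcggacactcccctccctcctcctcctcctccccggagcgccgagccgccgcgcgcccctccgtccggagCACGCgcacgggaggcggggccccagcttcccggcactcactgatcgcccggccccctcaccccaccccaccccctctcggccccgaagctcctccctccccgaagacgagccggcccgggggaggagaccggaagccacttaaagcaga
*Ahrr* promoter, chr13:74292352-74292581, minus strand: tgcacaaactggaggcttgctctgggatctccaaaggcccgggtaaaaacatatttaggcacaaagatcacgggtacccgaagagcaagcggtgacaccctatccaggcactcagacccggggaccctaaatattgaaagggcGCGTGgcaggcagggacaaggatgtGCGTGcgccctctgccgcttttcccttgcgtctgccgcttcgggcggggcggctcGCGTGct

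Promoters of 7 of the 8 genes were in the RefSeq table, all but that of *Ahr*. In windows of 300 bases, from 250 before the start, 5 of the 7 held GCGTG on either strand, against 32.4% of all 32851 promoters. Counted from the first transcribed base as 0, it began at positions -107, -82 and -27 in *Ahrr*, at -54 in *Cyp1a1* and at -29 in *Arnt*. *Cyp1b1* and *Tiparp* held it on the opposite strand, at -76 and -170. *Cyp1a2* and *Nqo1* held no such letters in this window. The longer form TNGCGTG, which contains the core, stood in the promoter of *Ahrr* and in 5.07% of all promoters. TATAAA stood in the promoters of *Cyp1a2*, *Cyp1a1* and *Nqo1* at position -29 or -30, and in 13.6% of all promoters. The YY1 consensus GCCATNTT stood in 1 of the 7 promoters, that of *Arnt*, at position 11, and in 6.05% of all promoters. A match of letters is not evidence of binding. Sequence outside these windows was not searched, so a gene without a match here may hold the element further away.

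**Figure D1:**
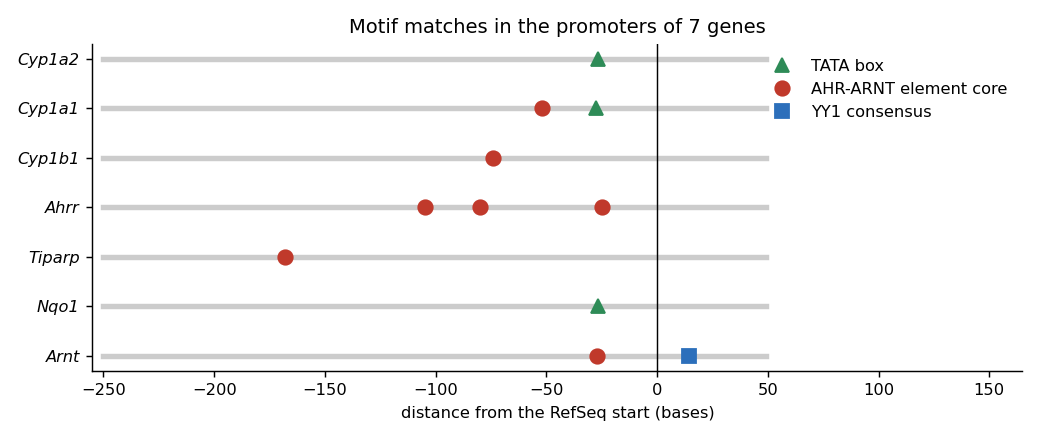
Matches of 3 motifs in the promoters of 7 genes, by distance from the RefSeq start (bases, x axis). Grey bars are the windows searched and symbols are the middles of the matches on either strand; *Cyp1a2* has a TATA box and no core element of the receptor in its window.

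*Yy1* itself was listed at 96.0, 100 and 89.8 TPM in the control KD group and, in the *Yy1* KD group, at 8.73, 8.90 and 8.32 TPM, and was called lower (log2 fold change of -3.32, limma adjusted p = 6.71e-05). Between 11793510 and 24417791 read pairs on genes were recovered per library, and limma was run on log2(TPM + 1), a scale that understates the change of low genes, for the 17353 genes that reached 1 TPM in 3 or more libraries. At an adjusted p under 0.05, the threshold for a call, there were 333 genes higher in *Yy1* KD (1.92%), 728 lower (4.2%) and 1061 in either direction (6.11%). Of the calls 68.6% were lower, and 58.5% with quantile normalization. The groups of 3 libraries did not overlap for 5224 genes (30.1%). All 10 morula markers passed the filter and their summed level was 2072 to 2357 TPM in the control KD libraries, against 1748 to 2056 TPM upon *Yy1* KD. One of them was called, *Tfap2c*, a trophectoderm and germline factor, at 183 and 126 TPM (log2 fold change of -0.54, limma adjusted p = 0.0174).

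*Cyp1a2* was listed at 0.576, 0 and 0.466 TPM in the control KD group and at 16.1, 9.48 and 17.9 TPM in the *Yy1* KD libraries. Every *Yy1* KD library was above every control KD library, and the lowest *Yy1* KD library was replicate 2. The means were 0.347 ± 0.306 and 14.5 ± 4.45 TPM (SD, n = 3 each), a ratio of 41.8. The difference was 3.51 on the log2(TPM + 1) scale, the second largest rise of the 17353 genes tested. In read pairs, 6, 0 and 7 fell on *Cyp1a2* in control KD and 251, 105 and 179 in *Yy1* KD, in sum 13 and 535, or 0.236 and 12.3 CPM (pairs scaled by the total on genes, with no correction for length). In control replicate 2, the deepest library, 0 pairs allow a level of up to 0.147 TPM (3 pairs, counting error only). The gene passed the filter on low values only through its *Yy1* KD libraries. In a pool it cannot be told apart whether more cells expressed the gene or each cell held more of its RNA.

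The level that *Cyp1a2* reached was moderate in absolute terms. In *Yy1* KD, 61.6% of the genes tested had a lower mean TPM than *Cyp1a2*. A mean under 1 TPM in control KD but of at least 10 TPM upon *Yy1* KD was found for 6 genes, of which 2 are protein coding, *Cyp1a2* and *Muc3*, an intestinal mucin.

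Because *Cyp1a1* and *Cyp1a2* are close paralogs, their transcripts were compared to see how far reads could be shared. The longest run of bases that Cyp1a2-201 (1940 nt) and Cyp1a1-201 (2621 nt) have in common was 137 nt, from position 291 to 427 of Cyp1a2-201, within the coding sequence. It is shown because read pairs that fall wholly within it cannot be assigned to 1 of the 2 genes.
Shared run of Cyp1a2-201 and Cyp1a1-201: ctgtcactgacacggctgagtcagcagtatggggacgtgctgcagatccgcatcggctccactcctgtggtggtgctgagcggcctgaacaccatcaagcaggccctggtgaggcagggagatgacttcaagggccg
No stretch of 150 nt was identical, and the closest stretches differed at 1 base.

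*Cyp1a1*, the target gene known for the strongest response to AHR ligands, was listed at 0, 0.0348 and 0.0481 TPM in control KD and at 0, 0.0652 and 0 TPM in *Yy1* KD. These values stand for 0, 1 and 1 and for 0, 1 and 0 read pairs. *Cyp1a1* therefore stayed at or under 1 pair in every library, also in those with over 100 pairs on *Cyp1a2*, and it was not tested. *Cyp1b1* (chr17:79701537-79715061, minus strand), the third enzyme of the family, was listed at 0 in every library but *Yy1* KD replicate 2, which held 0.218 TPM or 7 pairs. At this depth no difference was detectable for either gene.

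**Figure D2:**
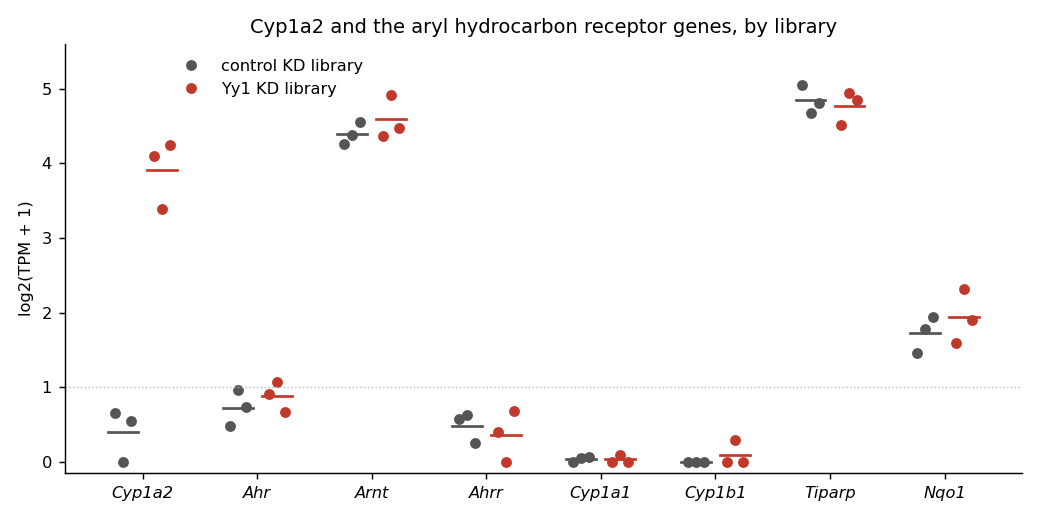
Level of the 8 genes in each library, as log2(TPM + 1) (y axis); points are libraries, short lines are the means of 3 libraries, and the dotted line marks 1 TPM. Only for *Cyp1a2* do the 3 *Yy1* KD libraries, at 9.48 to 17.9 TPM, lie apart from the 3 control KD libraries, at 0 to 0.576 TPM.

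The receptor gene *Ahr* (chr12:35497974-35535038, minus strand) was listed at 0.392, 0.943 and 0.663 TPM in control KD and at 0.870, 1.09 and 0.590 TPM in *Yy1* KD. The groups overlapped, and the means were 0.666 ± 0.276 and 0.850 ± 0.252 TPM (SD, n = 3 each). With a single library at or above 1 TPM it did not pass the filter. Without the filter its difference was 0.16 on the log2 scale (95% interval from -0.44 to 0.75, limma adjusted p = 0.78). Part of its exonic sequence is shared with *Gm48236*, and read pairs on both were divided between them.

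*Arnt* (chr3:95434388-95497240, plus strand), the nuclear partner of the receptor and of the hypoxia factors, was expressed at a far higher level than *Ahr*. It was listed at 18.2, 19.9 and 22.4 TPM in control KD and at 19.7, 29.2 and 21.3 TPM in *Yy1* KD. The groups overlapped, with the highest value in *Yy1* KD replicate 2. The log2 fold change was 0.19 ± 0.17 (SE; 95% interval from -0.21 to 0.59), which was not called (limma adjusted p = 0.543; exact permutation test, p = 0.5, two-sided). With 3 libraries against 3, this permutation test cannot go below 0.1.

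*Ahrr* (chr13:74211118-74292331, minus strand), the repressor that competes with the receptor for ARNT and is itself a target, was listed at 0.491, 0.544 and 0.185 TPM in control KD and at 0.315, 0 and 0.599 TPM in *Yy1* KD. The groups overlapped and the gene did not pass the filter. Without the filter its difference was -0.13 on the log2 scale (95% interval from -0.65 to 0.40, limma adjusted p = 0.801).

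*Tiparp* (chr3:65528410-65555518, plus strand), a PARP enzyme that restrains the receptor and is induced by it, had the highest mean of the 8 genes in both groups. It was listed at 32.0, 24.5 and 27.1 TPM in control KD and at 21.9, 29.7 and 27.7 TPM in *Yy1* KD. The groups overlapped, and the log2 fold change was -0.08 ± 0.15 (SE; 95% interval from -0.44 to 0.28), which was not called (limma adjusted p = 0.805; exact permutation p = 0.7). Without control replicate 1 the log2 fold change was 0.02 and without *Yy1* KD replicate 1 it was 0.05, so its direction rested on single libraries. *Tiparp* shares exonic sequence with *4931440P22Rik*.

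*Nqo1* (chr8:107388225-107403206, minus strand), a quinone reductase that both AHR and NRF2 induce, was listed at 1.74, 2.43 and 2.85 TPM in control KD and at 2, 3.98 and 2.73 TPM in *Yy1* KD. The groups overlapped, and the log2 fold change was 0.21 ± 0.27 (SE; 95% interval from -0.42 to 0.84), which was not called (limma adjusted p = 0.688; exact permutation p = 0.5). These values rest on 14 to 39 read pairs per library.

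Of the 7 genes other than *Cyp1a2*, 3 passed the filter and 0 were called in either direction, against 6.11% of all genes tested, and 0 of the 3 had an unadjusted p under 0.05 or were called by limma-voom on recovered read pairs. In the control KD libraries the order of the mean levels was *Tiparp* (27.8 TPM), *Arnt* (20.2 TPM), *Nqo1* (2.34 TPM), *Ahr* (0.666 TPM), *Ahrr* (0.406 TPM), *Cyp1a2* (0.347 TPM), *Cyp1a1* (0.0276 TPM) and *Cyp1b1* (0 TPM). From *Ahr* down, each gene's libraries overlapped with those of the next gene, whereas those of *Tiparp*, *Arnt* and *Nqo1* lay above all libraries of the gene next in the order. In *Yy1* KD, *Cyp1a2* (14.5 TPM) took the place between *Arnt* (23.4 TPM) and *Nqo1* (2.90 TPM).

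The wider pathway was described through 8 lists with 63 genes, of which 41 were tested. Of these, 2 were called higher (against 1.92% of all genes), 5 lower (against 4.2%) and 34 were not called. Their median log2 fold change was -0.02, the same as that of all genes, and was 0.00 with median-ratio scaling and 0.02 with quantile normalization. For the counts that follow, 23.8% of all genes tested had an unadjusted p under 0.05 and limma-voom on recovered read pairs called 12.4%.

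Of the 3 genes of the cytosolic receptor complex reported here, 1 was called higher (against 1.92% of all genes) and 0 lower (against 4.2%). Their median was 0.20. *Ptges3*, the p23 co-chaperone, rose from 1051, 1041 and 947 TPM to 1362, 1349 and 1281 TPM, a log2 fold change of 0.39 ± 0.07 (limma adjusted p = 0.0339). The HSP90 genes *Hsp90aa1* (10430 and 12057 TPM, limma adjusted p = 0.39) and *Hsp90ab1* (7961 and 9124 TPM, limma adjusted p = 0.257) were not called. Limma-voom called all 3 genes higher (adjusted p = 0.0473 for *Hsp90aa1* and 0.0048 for *Hsp90ab1*). The call of *Ptges3* was lost without any 1 of the 6 libraries (limma adjusted p of up to 0.11).

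Of the coactivators and corepressors, 2 of 9 were called lower (against 4.2% of all genes) and 0 higher (against 1.92%), with a median of -0.31, and limma-voom called 4 lower. *Ncor1*, a corepressor that recruits histone deacetylases, fell from 36.6, 37.8 and 46.9 TPM to 25.0, 21.4 and 23.3 TPM (log2 fold change of -0.77 ± 0.12, limma adjusted p = 0.0233). It shares exonic sequence with *Pigl* and *Ttc19*. *Crebbp*, a histone acetyltransferase, had 95.3 ± 2.48 TPM in control KD and fell to 76.5 ± 0.639 TPM (SD over 3 libraries), with a log2 fold change of -0.31 (limma adjusted p = 0.0432). *Smarca4*, the BRG1 remodeler, was not called (233 and 248 TPM, limma adjusted p = 0.531). Both calls were lost without any 1 of the 6 libraries (limma adjusted p of up to 0.0808 for *Ncor1* and 0.124 for *Crebbp*).

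Among 10 other AHR target genes, 5 were tested and 0 were called (against 6.11% of all genes). Of the 5, 3 had an unadjusted p under 0.05 and limma-voom called 2, 1 in each direction. *Cyp2s1*, a further P450 gene known as an AHR target, had 124, 102 and 149 TPM in control KD against 64.3, 53.6 and 84.9 TPM in *Yy1* KD. Its groups did not overlap, the *Yy1* KD values were the lower ones, and the log2 fold change was -0.88 ± 0.20 (limma adjusted p = 0.0515). It was called lower with median-ratio scaling (limma adjusted p = 0.0459), with the replicate block (0.0357) and by limma-voom (0.00462). It was not called with a pseudocount of 0.1, without the filter (limma adjusted p = 0.122) or with quantile normalization. Nor was it called in any of the 6 fits that left out a library (limma adjusted p of up to 0.145). *Slc7a5*, an amino acid transporter, had means of 31.2 and 27.0 TPM (limma adjusted p = 0.452). *Scin*, an actin-severing protein, and *Gsta1*, a glutathione transferase, were singled out after their values were seen. *Scin* had means of 1.14 and 3.56 TPM (log2 fold change of 1.07, limma adjusted p = 0.0587) and *Gsta1* had 0.935 and 2.63 TPM (0.90, limma adjusted p = 0.0779). For both, the groups did not overlap and the *Yy1* KD values were the higher ones. Both reached 1 TPM in every *Yy1* KD library but not in every control KD library, so they passed the filter partly through the group where they are high. Limma-voom called *Scin* higher (adjusted p = 0.0118) and did not call *Gsta1* (adjusted p = 0.104). *Aldh3a1*, an aldehyde dehydrogenase singled out in the same way, was listed at 0 in all control KD libraries and at 2.33, 0 and 0.312 TPM in *Yy1* KD, and was not tested. *Xdh*, also not tested, had 0.0211, 0.095 and 0.0438 TPM in control KD against 0.296, 0.139 and 0.22 TPM in *Yy1* KD, on at most 21 pairs. The other targets not tested, *Ugt1a6a*, *Ugt1a6b* and *Ereg*, had at most 0.12 TPM in any library. The tested targets thus did not share a direction, with 2 of 5 fold changes above 0. Of those below 0, *Slc7a5* (-0.23) and *Socs2* (-0.07) had overlapping groups. Of the 5, the groups did not overlap for 2 that were higher and 1 that was lower, against 30.1% of all genes tested.

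**Figure D3:**
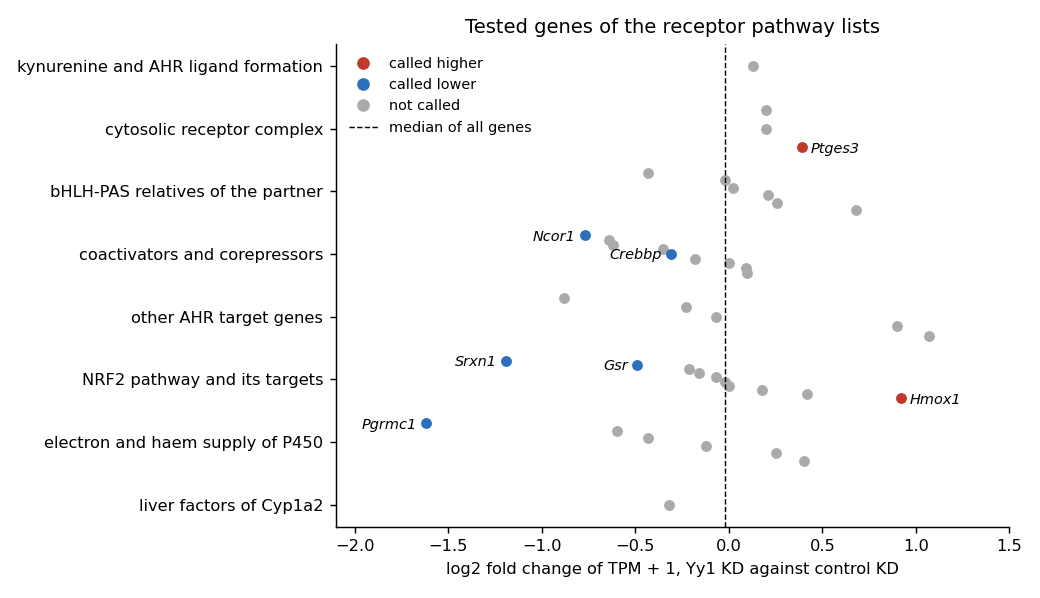
Log2 fold change of TPM + 1 between *Yy1* KD and control KD (x axis) for the 41 tested genes of the 8 pathway lists; each point is a gene, coloured by its call, and the dashed line is the median of all genes at -0.02. The 2 genes called higher and the 5 called lower are named.

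In the list of NRF2 and its targets, which shares *Nqo1* with the AHR, 10 of 11 genes were tested. Of these, 1 was called higher (against 1.92% of all genes) and 2 lower (against 4.2%), with a median of -0.05 (0.03 with quantile normalization). *Hmox1*, haem oxygenase 1, rose from 18.1, 25.9 and 25.6 TPM to 34.1, 51.6 and 48.9 TPM (log2 fold change of 0.92 ± 0.20, limma adjusted p = 0.0492). *Srxn1*, sulfiredoxin, fell from 9.52, 12.5 and 14.0 TPM to 6.23, 3.61 and 4.37 TPM (log2 fold change of -1.19 ± 0.22, limma adjusted p = 0.0339). *Gsr*, glutathione reductase, fell from 95.8 to 68.4 TPM (-0.49 ± 0.09, limma adjusted p = 0.0339). *Nfe2l2*, which encodes NRF2, had means of 17.5 and 16.8 TPM (limma adjusted p = 0.827) and *Keap1*, its inhibitor, 18.2 and 16.1 TPM (limma adjusted p = 0.466). The calls of *Hmox1*, *Srxn1* and *Gsr* each held in 1 of the 6 fits that left out a library, without *Yy1* KD replicate 1 for *Hmox1* and *Srxn1* and without *Yy1* KD replicate 3 for *Gsr*. *Hmox1* was not called with a pseudocount of 0.1.

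The enzymes that supply electrons and haem to P450s gave 1 call in 6 genes, lower (against 4.2% of all genes), with a median of -0.27. *Pgrmc1*, a haem-binding partner of P450s, fell from 92.2 ± 9.98 to 29.2 ± 2.38 TPM (SD over 3 libraries), with a log2 fold change of -1.62 (limma adjusted p = 0.00222). *Por*, the P450 reductase, had 54.7, 34.2 and 62.3 TPM in control KD against 27.3, 28.3 and 41.7 TPM in *Yy1* KD, with overlapping groups (-0.60, limma adjusted p = 0.213). *Alas1*, the first enzyme of haem synthesis, had means of 34.0 and 31.4 TPM (limma adjusted p = 0.59).

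Of 7 genes of the kynurenine pathway and of AHR ligand formation from tryptophan, 6 were near or at 0 and 1 was tested. This was *Il4i1*, an amino acid oxidase, with means of 1.99 and 2.33 TPM (limma adjusted p = 0.813). It shares exonic sequence with *Atf5*, *Nup62* and *Tbc1d17*. *Ido1* and *Tdo2*, which start the kynurenine pathway, had at most 0.106 and 0.0998 TPM in any library. Of 12 bHLH-PAS relatives of ARNT and its partners, 6 were tested and 0 called, with a median of 0.12. Of the 6, 2 had an unadjusted p under 0.05 and limma-voom called 1. With *Npas1*, 1 of these 2, the count is no support for a change. It had 0.642, 0.451 and 0.779 TPM in control KD against 1.16, 2.05 and 1.64 TPM in *Yy1* KD, and passed the filter only through *Yy1* KD. The gene with the highest level was *Epas1*, the hypoxia factor HIF2A, which had 302, 383 and 347 TPM in control KD against 274, 239 and 250 TPM in *Yy1* KD. Its groups did not overlap, and limma did not call it (log2 fold change of -0.43, limma adjusted p = 0.062), whereas limma-voom called it lower (adjusted p = 0.01).

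Of 5 transcription factors known to drive *Cyp1a2* in the liver, 1 was tested. *Cebpa* had 40.1, 42.0 and 36.9 TPM in control KD against 24.4, 37.2 and 34.2 TPM in *Yy1* KD, with overlapping groups (limma adjusted p = 0.286). Of 10 hepatocyte markers, 2 were tested and 0 were called; *Fgb*, *Cyp3a11* and *Serpina1a* were listed at 0 in all 6 libraries and *Alb* in all but 1 control KD library. Their summed level was 37.3 to 60.8 TPM in control KD against 35.3 to 54 TPM in *Yy1* KD, most of it from *Tat* (30 to 44.8 TPM over the libraries) and *Apoa1* (5.12 to 15.3 TPM), with *Cyp2e1* at 9.22 TPM in control replicate 2. Markers of cumulus and granulosa cells summed to 0.61 to 1.1 TPM and 0.186 to 2.11 TPM, with 5 of 9 listed at 0 in all libraries, and blood markers to 0.674 to 4.13 TPM and 0.477 to 1.12 TPM, with 2 of 5 at 0. All 3 sums overlapped between the groups.

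The nearest genes on chromosome 9 were then examined. On the side of lower coordinates, *Csk*, a kinase that restrains Src, lies 23306 bases from *Cyp1a2*, followed by *Lman1l* and *Cplx3*. *Csk* is on the minus strand, so its start is the end nearer to *Cyp1a2*. On the other side the GENCODE gene of *Cyp1a1* begins 4225 bases away (the RefSeq start used for its promoter lies further along within that gene), followed by *Edc3*, an mRNA decapping factor, at 24837 bases and *Clk3*, a splicing kinase, at 66921 bases. *Csk* was listed at 33.2, 37.4 and 34.0 TPM in control KD against 30.3, 31.4 and 33.3 TPM in *Yy1* KD (log2 fold change of -0.13, 95% interval from -0.35 to 0.08, limma adjusted p = 0.428). *Edc3* was listed at 16.7, 15.9 and 14.7 TPM and 20, 15.4 and 19 TPM (0.18, interval from -0.13 to 0.50, limma adjusted p = 0.45), and *Clk3*, with which it shares exonic sequence, at 15.0, 13.0 and 16.4 TPM and 16.4, 13.7 and 17.8 TPM (0.10, interval from -0.24 to 0.45, limma adjusted p = 0.714). *Lman1l*, *Cplx3* and *Cyp1a1* had less than 1 TPM in every library and were not tested. Thus 0 of the 3 neighbours tested were called, against 6.11% of all genes.

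**Figure D4:**
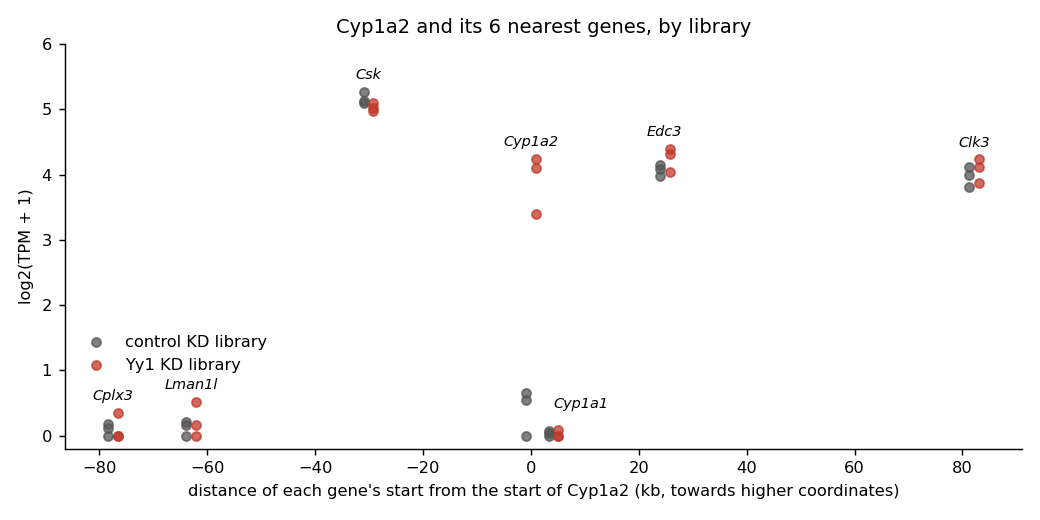
Level of *Cyp1a2* and its 6 nearest genes in each library, as log2(TPM + 1) (y axis), by the distance of each gene's GENCODE start from that of *Cyp1a2* in kb (x axis). The groups overlap for all 6 neighbours and lie apart for *Cyp1a2*.

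In the whole P450 family, 134 genes were listed, of which 46 were at 0 in all libraries, 71 were above 0 but too low to be tested and 17 were tested. Of the 134, 33 are not annotated as protein coding, and some of the 17 tested are pseudogenes by their symbols. Apart from *Cyp1a2*, 0 of 16 were called (against 6.11% of all genes). Of the 16, 4 had an unadjusted p under 0.05 (23.8% of all genes) and limma-voom called 3 (12.4% of all genes). By mean TPM *Cyp1a2* stood at rank 23 of the family in control KD and at rank 3 in *Yy1* KD, behind *Cyp2s1* (67.6 TPM) and *Cyp20a1*, an orphan P450 (18.4 TPM). *Cyp2b23*, singled out after its values were seen, had 0.530, 0.177 and 0.367 TPM in control KD against 2.01, 1.25 and 2.58 TPM in *Yy1* KD. Its groups did not overlap and its log2 fold change was 1.10. The gene passed the filter on low values only through its *Yy1* KD libraries, so no test is given for it. It is 1 of the 4 genes with an unadjusted p under 0.05 and 1 of the 3 that limma-voom called. *Cyp2b23* belongs to a family of close paralogs.

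**Figure D5:**
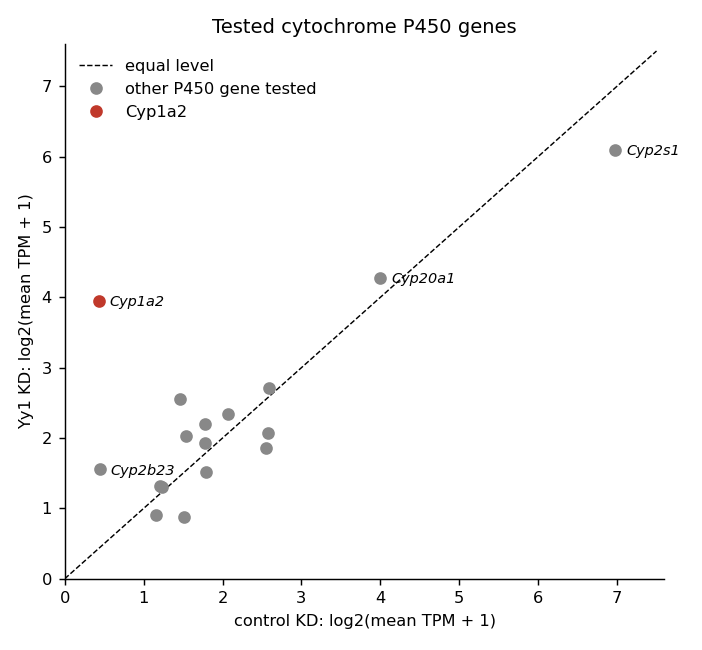
Mean level of the 17 tested P450 genes in control KD (x axis) and *Yy1* KD (y axis), each as log2(mean TPM + 1) over 3 libraries; the dashed line marks equal levels. *Cyp1a2* lies far above the line, with means of 0.347 TPM (control KD) and 14.5 TPM (*Yy1* KD).

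Among 8194 genes compared over the 6 libraries, those whose log2(TPM + 1) followed *Cyp1a2* most closely were *Exosc9* (Pearson's r = 0.9981), *Gpank1* (0.9937), *Dohh* (0.9920), *Rhod* (0.9914) and *Mir743b* (0.9904). *Exosc9*, a subunit of the RNA exosome, had 60.6, 58.8 and 61.6 TPM in control KD against 81.1, 76.1 and 82.6 TPM in *Yy1* KD, and so shared the dip of replicate 2 in both groups. *Rhod*, a small GTPase, had means of 1.96 and 5.4 TPM. *Mir743b*, a gene of 77 nt, was listed at 0 in control KD and at 8.39, 7.08 and 10.5 TPM in *Yy1* KD, which stand for 5, 3 and 4 pairs. The points share their libraries, their depth and the step between the groups, 4 of the 5 genes share exonic sequence with another gene, and 177 genes had an r of at least 0.95.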

How the data were processed

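RNA-seq was performed on 3 control KD and 3 *Yy1* KD libraries of pooled morulae. The authors trimmed the reads (Trim Galore 0.6.7), aligned them to mm10 with HISAT2 2.2.1, removed ribosomal reads with bedtools, assigned pairs to GENCODE vM25 with featureCounts 2.0.1, ignoring strand and dividing pairs on several genes, and deposited TPM per gene and library. The study ran a count-based test, and since the values deposited are TPM, limma 3.58.1 (R 4.3.3) was fitted here to log2(TPM + 1) with a variance trend, for genes with TPM of at least 1 in at least 3 libraries. Two-sided p-values were Benjamini-Hochberg adjusted over 17353 genes, and 0.05 was the threshold. Nothing in the labels says that the pools came from separate inseminations, so p-values measure the spread between these pools, which may be technical.

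The members and all lists were chosen with earlier results of these data known, and 1 gene of the lists is not reported here and is left out of their counts. Genes named were the 8 members, *Yy1*, called genes of the lists and up to 3 others per list with the highest TPM, the 3 nearest genes on each side of *Cyp1a2*, genes that overlap a member, called P450 genes (symbols starting with Cyp and a digit) and the 5 genes most like *Cyp1a2*, with a mean of at least 5 TPM in *Yy1* KD and no clone or predicted name. *Tfap2c* as a called marker, genes named as listed at or near 0, *Muc3* and *Cyp20a1* were also chosen after their values were seen. Positions, exon lengths and transcripts came from GENCODE vM21 (GRCm38, the assembly of mm10), which matched 54312 of 55364 identifiers (98.1%). Multiplying TPM by exon length gave read pairs. Under 20 pairs, 80.6% to 81.7% of values were whole within 0.02 pairs and 99.3% to 99.4% were multiples of a sixth, which is how divided pairs would appear. Alternatives were a pseudocount of 0.1, no filter, median-ratio scaling, quantile normalization, a replicate block, leaving out each library, and limma-voom on the recovered pairs. The fit was checked on simulated libraries. Python 3.11.15, pandas 2.3.3, numpy 2.4.6 and matplotlib 3.10.9 were used.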

Additional observations from a re-analysis of the deposited data

How the results depend on the processing

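None of the 7 members other than *Cyp1a2* was called under any alternative in which it was tested. The log2 difference of *Cyp1a2* was 5.39 with a pseudocount of 0.1 and 6.51 with limma-voom on recovered read pairs, both of which compress low values less, and lay between 3.31 and 3.77 when a library was left out. *Tiparp* ranged from -0.16 to 0.05 when a library was left out, with 0.02 without control replicate 1 and 0.05 without *Yy1* KD replicate 1. *Nfe2l2* turned to 0.02 with quantile normalization and to 0.03 without *Yy1* KD replicate 2, and ranged from -0.22 to 0.03 when a library was left out. Over all genes, 77 were higher and 270 lower without the filter, where 35852 genes were tested, 811 and 1280 with limma-voom, and 22 to 92 and 53 to 326 when a library was left out. Of the pathway list genes, 0 were higher (limma) and 1 lower without the filter, 5 and 9 with limma-voom, and 0 to 1 and 1 to 2 when a library was left out, and 1 was higher with a pseudocount of 0.1. Some of these fits held fewer libraries or more genes, and the cause of these moves was not tested. The replicate block gave 69 genes higher and 218 lower, and 1 list gene higher and 2 lower; *Hmox1* (limma adjusted p = 0.0434) and *Pgrmc1* (0.0357) kept their calls in it and *Cyp2s1* gained one. Libraries with the same number deviated from their group means with correlations of -0.00388, 0.0319 and 0.0747, so the numbers were not taken as pairs. *Ptges3*, *Ncor1*, *Srxn1* and *Gsr* lost their calls without the filter and with the block, *Hmox1* without the filter and with a pseudocount of 0.1, and *Crebbp* also with median-ratio scaling and quantile normalization. *Tfap2c* kept its call in 1 of the 6 fits that left out a library, without *Yy1* KD replicate 1 (limma adjusted p of up to 0.0668 otherwise). Of the called genes of the lists, *Yy1* and *Tfap2c*, only *Pgrmc1* and *Yy1* kept their calls in all 12 alternatives. On a gene of the length of *Cyp1a2*, 3 pairs were worth 0.147 to 0.308 TPM, and less on *Cyp1a1*, *Cyp1b1*, *Ahr* and *Ahrr*, which are longer. Depth limits what could be seen for *Cyp1a1* and *Cyp1b1*, with at most 1 and 7 pairs in a library. *Ahr* rested on 12.5 to 60 pairs per library and *Ahrr* on 0 to 53, which limits the precision of their comparison.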

Other observations

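*Muc3*, an intestinal mucin, was the only other protein-coding gene with a mean under 1 TPM in control KD and of at least 10 TPM in *Yy1* KD. It was listed at 0.497, 0.299 and 0.552 TPM in control KD and at 4.79, 13.8 and 15.8 TPM in *Yy1* KD, which stand for 5, 6 and 8 and for 72, 147 and 152 read pairs. The gene was taken for this pattern, so no test is given. The lowest *Yy1* KD library was replicate 1 for *Muc3* and replicate 2 for *Cyp1a2*, so the 2 genes did not order the *Yy1* KD libraries alike.

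*Cyp2e1*, a hepatocyte marker and P450 gene, was listed at 0.627, 9.22 and 0.559 TPM in control KD and at 0.12, 0.169 and 0.0935 TPM in *Yy1* KD. Control replicate 2 stood apart from the other libraries for this gene, and it was not tested.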
